A study of Mus musculus with 17 samples.

Results

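The proteasome subunit genes described here are the protein-coding mouse genes whose symbol is Psm, a letter from a to g and a number, whose level averaged 1 FPKM or more in 17 liver libraries. FPKM counts fragments per length of transcript and per depth of the library, so levels of different genes can be set side by side. Of 46073 genes in the table, 48 carried such a symbol. Psma8, a testis alpha subunit, and Psmb11, a thymus beta subunit, stayed below the limit, with means of 0.468 and 0.0136 FPKM. The other 46 genes were all tested, and 3 of them, the immunoproteasome subunits Psmb8, Psmb9 and Psmb10, are given apart from the remaining 43.

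Livers came from male C57BL/6 mice aged 11 or 12 weeks, taken 24 h after acetaminophen (APAP) or saline. Genotype labels were Nampt +/+ (WT here), Nampt +/- (Het) and Nampt OE (OE, left unexplained, with neither a promoter nor a line given). The saline groups held 3 WT, 2 Het and 2 OE livers. The groups given 200.0 mg/kg APAP held 3 WT livers, 3 Het livers and 2 OE livers. A further WT mouse had saline labelled IG, and a further OE mouse had APAP at 300.0 mg/kg, so each was alone in its group. Replicate numbers are names only.

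Some facts on the libraries touch every result. Livers of lanes 7 and 8 were perfused and those of lanes 4, 5 and 6 were not, so lane and perfusion cannot be told apart. Both Het saline livers were in lane 8, WT saline livers in lanes 6 and 7, and WT APAP livers in lane 5. Nampt itself did not follow the labels: it was 26.02 and 23.05 FPKM in the saline livers labelled Het, 15.3 to 17.98 FPKM in WT saline, and 22.4 and 27.2 FPKM in OE saline. Directions drawn from the genotype labels below carry that limit. OE saline 2 and OE APAP 1, both from lane 4, had the 2 lowest summed leukocyte marker levels and the 2 lowest summed Kupffer cell marker levels. The leukocyte sums were 121 and 139 FPKM, with WT saline IG 1 next at 155 FPKM. The Kupffer cell sums were 117 and 95.9 FPKM, and WT APAP 2, at 118 FPKM, was as low as OE saline 2. Results that rest on OE saline 2 and OE APAP 1 are also given without them. Hepatocyte markers were abundant in every library, with a summed level of 17174 to 35450 FPKM, though Alb, the albumin gene, is listed at 0 in all 17. In whole liver, fewer cells of a type and less RNA per cell cannot be told apart.

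The proteasome is the main machine that degrades proteins tagged with ubiquitin. Its 20S core is a barrel of alpha rings, which gate the entrance, and beta rings, which hold the cutting sites. The 19S particle caps the barrel: a base of ATPases unfolds substrates and a lid removes ubiquitin. In hepatocytes, proteasome genes are known to be switched on together by the transcription factor NFE2L1, which binds antioxidant response elements with small Maf partners, and interferon exchanges the catalytic beta subunits for those of the immunoproteasome.

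Promoters are shown because common control through these elements is the textbook account of this family. RefSeq (GRCm38.p6) held 39 of the 46 genes, and 250 bases before each start were read on both strands. The core TGACNNNGC was found in 5 of the 39 genes (12.8%), against 11.5% of all 27025 genes with a window. CCAAT was found in 13 (33.3%, against 37.5% of all genes). The core of the interferon response element was found in 3 (7.7%, against 3.5%): Psmb3, Psmd4 and Psmd9. The immunoproteasome gene Psmb9, whose window held CCAAT, had no match. Whether Psmb8 and Psmb10 were among the 39 genes is not given here. The matching stretches are given below, 5′ to 3′ on the gene's strand, with the TGACNNNGC match or its reverse complement in capitals. A match describes letters only. The genes are Psmb5 (chr14:54618008-54618068, minus strand), which carries the chymotrypsin-like site, Psmb6 (chr11:70525322-70525356, plus), which carries the caspase-like site, the assembly chaperone Psmd9 (chr5:123228133-123228189, plus), the ATPase Psmc6 (chr14:45329574-45329631, plus) and the lid subunit Psmd12 (chr11:107479278-107479315, plus).
Psmb5: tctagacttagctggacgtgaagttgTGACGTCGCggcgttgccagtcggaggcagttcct
Psmb6: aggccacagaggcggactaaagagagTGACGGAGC
Psmd9: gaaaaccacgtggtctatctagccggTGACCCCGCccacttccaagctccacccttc
Psmc6: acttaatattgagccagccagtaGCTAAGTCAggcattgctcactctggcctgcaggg
Psmd12: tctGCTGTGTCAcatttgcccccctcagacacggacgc
None of these letter patterns was found in the windows of Psmf1 (chr2:151741311-151741410, minus strand) and Psmd8 (chr7:29180674-29180773, minus), which lead the results below. Their 100 bases before the RefSeq start follow. The Psmf1 stretch lies inside the span that GENCODE vM21 gives this gene (chr2:151715812-151744186), so it does not lie before the GENCODE start.
Psmf1: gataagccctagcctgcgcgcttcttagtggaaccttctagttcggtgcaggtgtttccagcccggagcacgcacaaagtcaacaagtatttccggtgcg
Psmd8: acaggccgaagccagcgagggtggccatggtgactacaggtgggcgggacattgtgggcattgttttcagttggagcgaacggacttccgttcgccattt

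Levels differed between the parts of the particle, though the ranges of the rings, the ATPases and the lid overlapped. Mean levels over the 17 libraries were highest for the beta subunit Psmb6 (160 FPKM), the alpha subunit Psma3 (155 FPKM) and the beta subunit Psmb4 (148 FPKM). The alpha ring spanned 53.9 (Psma5) to 155 FPKM and the beta ring 66.4 (Psmb2) to 160 FPKM. ATPases of the base were lower, from 34.4 (Psmc2) to 80.2 FPKM (Psmc3), and the lid ran from 19.6 (Psmd7) to 94.2 FPKM (Psmd8). Assembly chaperones, which help build the particle and leave it, were lower still: Psmg1 to Psmg4, for the 20S core, had 9.67 to 14.8 FPKM and Psmd5, Psmd9 and Psmd10, for the 19S base, 6.67 to 17.99 FPKM. Psmf1, which encodes the 20S inhibitor PI31, had 9.32 FPKM. The summed level of the 43 genes lay between 2069 FPKM (Het APAP 3) and 2983 FPKM (OE saline 2).

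**Figure D1:**
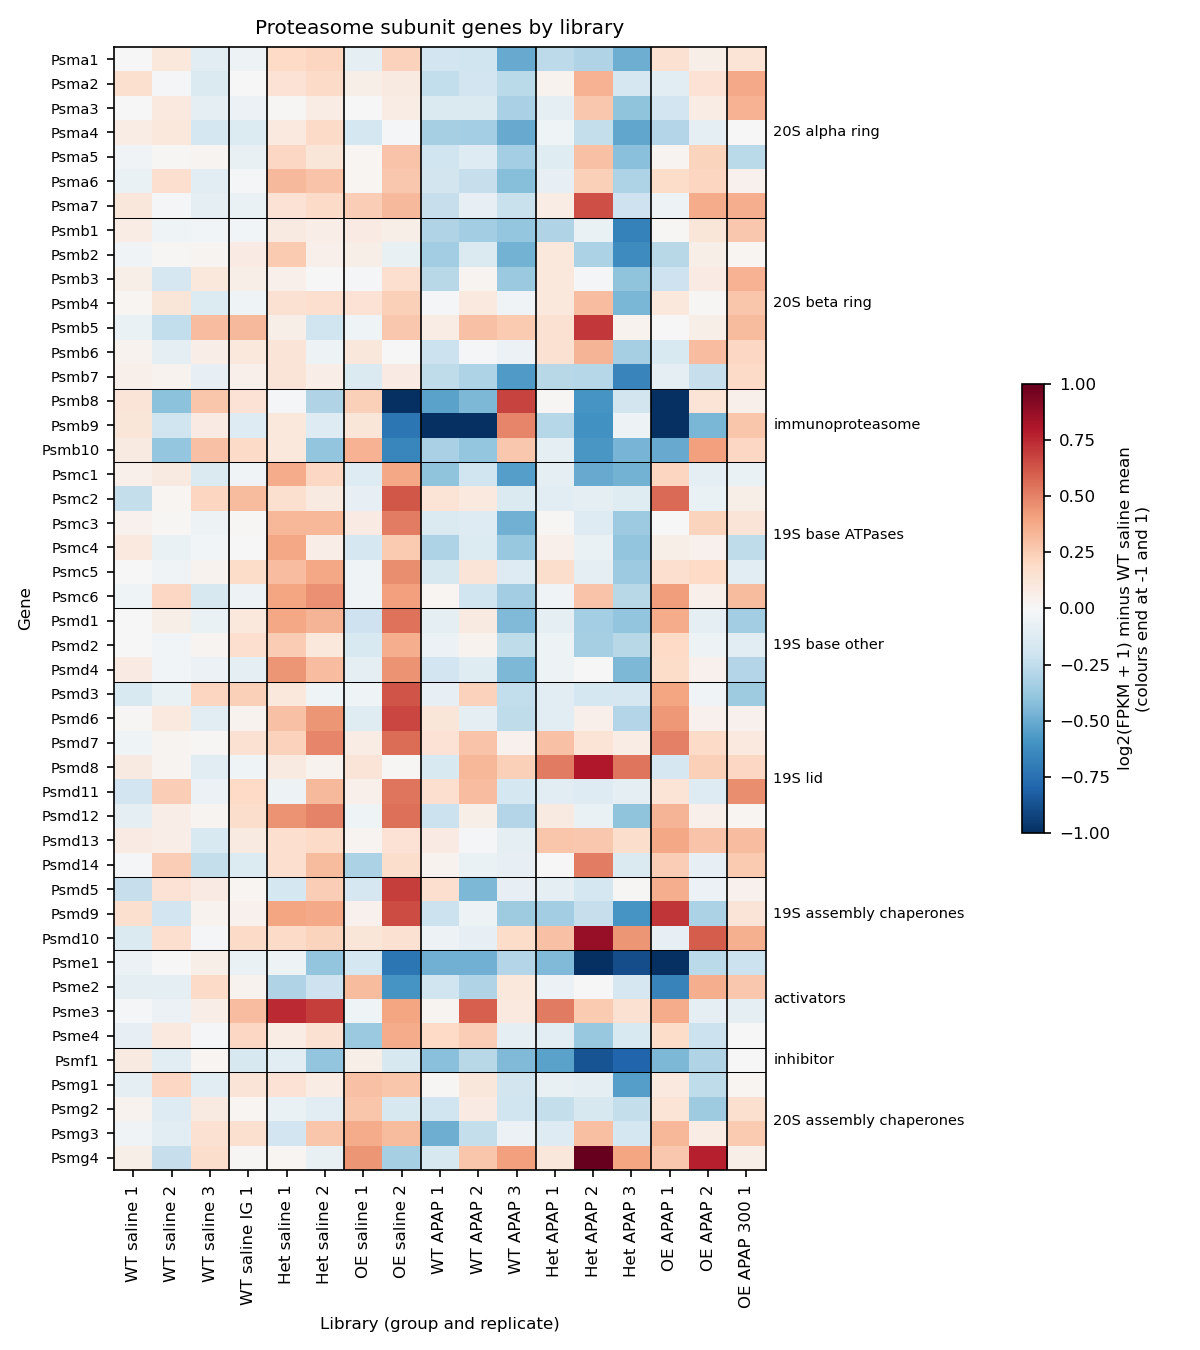
Level of each of the 46 genes (rows, grouped by role) in each library (columns) as log2(FPKM + 1) minus the WT saline mean; red is higher, blue lower, and colours end at -1 and 1. WT APAP 1, WT APAP 3 and Het APAP 3 are mostly blue, the Het saline columns and OE saline 2 are red in the 19S rows, and the immunoproteasome rows vary from library to library within groups.

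After APAP, averaged over the 3 genotypes, most of the 43 genes were slightly lower than after saline, but 2 of 43 passed the test, both lower: the inhibitor Psmf1 and the assembly chaperone Psmd9. Of all 11101 genes tested, 23.1% passed (13.3% lower and 9.79% higher), so 2 of 43 is below the background. The test is limma on log2(FPKM + 1) with p-values adjusted over all genes tested by the Benjamini-Hochberg method, at 0.05. The median of the 43 differences was -0.21 on the log2 scale, with 36 of 43 below 0, beside -0.02 for all genes, of which 52.9% were below 0. This direction was lost after quantile normalisation: the median was 0.02 and 18 of 43 were below 0. There, 18 genes turned from negative to positive and 0 the other way. Median-ratio scaling, which multiplies all values of a library alike, moved the median of all genes by 0.02. In the same comparison 5 of 11 hepatocyte markers fell and 1 rose, and 8 of 14 leukocyte and macrophage markers rose and none fell; the part of cell makeup in the proteasome values was not tested.

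Set beside all genes of their level, the 43 genes were lower in some ranges and higher in others. The 23 genes with a mean of 30 to 100 FPKM had a median difference of -0.21, against -0.18 for all genes of that range. The 9 genes of 10 to 30 FPKM had -0.16 against -0.09, and the 3 genes of 3 to 10 FPKM had -0.22 against -0.01. The 8 most abundant, of 100 to 300 FPKM, had -0.12 against -0.27, the one range where proteasome genes lay above the rest. After quantile normalisation the members' medians, from the lowest range up, were -0.18, -0.10, 0.02 and 0.16, while those of all genes lay between -0.02 and 0.01. The part of level in the shift was not tested. The count of calls turned on single libraries: 0 of 43 were lower without Het saline 1, OE saline 2 or OE APAP 2, 1 without WT saline 3 or Het saline 2, and 8 without OE saline 1 or Het APAP 1. Without both OE saline 2 and OE APAP 1, of lane 4, 1 was lower, Psmd9.

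**Figure D2:**
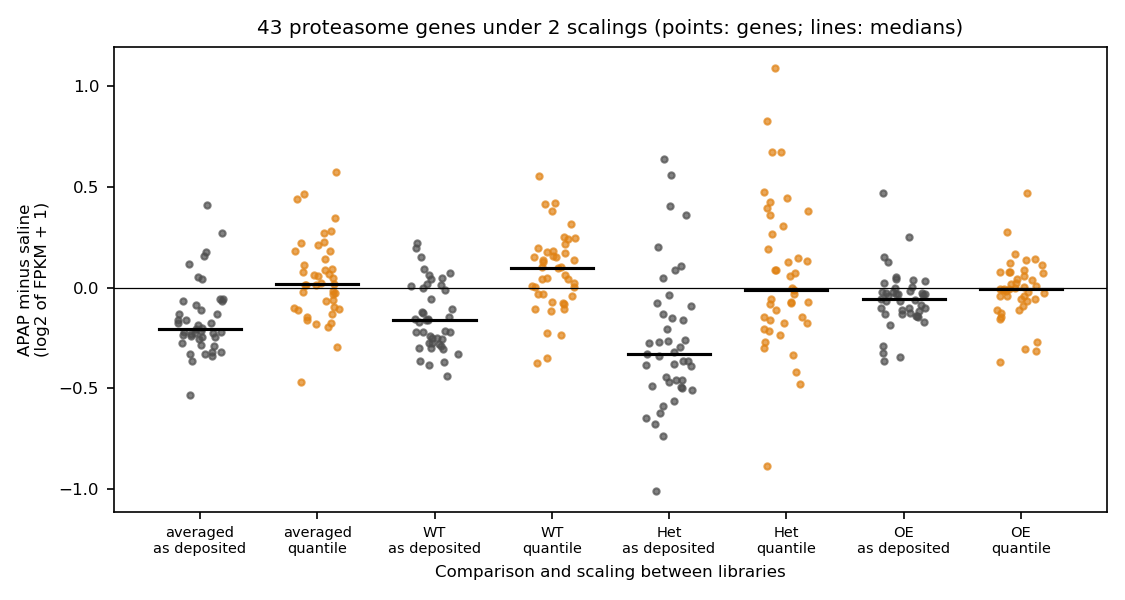
Differences of the 43 genes between APAP and saline (y axis, log2 of FPKM + 1) for the averaged response and for WT, Het and OE, as deposited (grey) and after quantile normalisation (orange); points are genes, lines medians. As deposited the medians are -0.21, -0.16, -0.33 and -0.06, and after quantile normalisation they are 0.02, 0.10, -0.01 and -0.01.

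Psmf1 (chr2:151715812-151744186, minus strand, GRCm38) was lower after APAP in each genotype, with no overlap between the saline and the 200.0 mg/kg libraries of a genotype. Of all genes tested, 21.7% in WT, 33.2% in Het and 10.6% in OE were likewise lower without overlap. Over all genotypes the saline and APAP libraries of Psmf1 overlapped. Psmf1 had 12.1, 10.5 and 11.5 FPKM in WT saline and 8.23, 9.22 and 8.08 FPKM in WT APAP. Het saline livers had 10.5 and 8.42 FPKM and Het APAP livers 7.53, 5.81 and 6.12 FPKM. OE saline livers had 11.9 and 10.1 FPKM and OE APAP livers 8.05 and 9.01 FPKM, while the OE liver given 300.0 mg/kg had 11.4 FPKM, within the saline range. The averaged difference was -0.33 ± 0.09 (SE, 8 APAP and 7 saline libraries; fold 0.797, limma adjusted p = 0.0241), and it was also called after quantile normalisation (-0.29, limma adjusted p = 0.0395). Within genotypes it did not pass: the WT difference was -0.28 (limma adjusted p = 0.268), the Het difference -0.38 and the OE difference -0.33. After APAP, all 3 Het livers were below all 3 WT livers (-0.40, limma adjusted p = 0.129).

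Psmd9, a chaperone of the 19S base, had 14.8, 11.4 and 13.4 FPKM in WT saline and 11.2, 12.6 and 10.1 FPKM in WT APAP. Het saline livers had 17.5 and 17.3 FPKM and Het APAP livers 10.1, 11.0 and 8.39 FPKM, so the Het groups did not overlap. The OE groups did: 13.6 and 21.2 FPKM after saline, and 22.2 and 10.3 FPKM after APAP, with the higher value of each in a lane 4 library. The averaged difference was -0.53 ± 0.15 (SE; fold 0.692, limma adjusted p = 0.0258). It was also called after quantile normalisation (-0.47, limma adjusted p = 0.0459). Psmd9 was not called when Het saline 1, OE saline 2 or OE APAP 2 was left out alone. Leaving out 1 library, its averaged difference ran from -0.67 to -0.30. In GENCODE vM21 (GRCm38), Psmd9 (chr5:123169413-123250131, plus strand) spans Hpd (chr5:123171807-123182727, minus strand), a tyrosine-catabolism enzyme with a mean of 788 FPKM. The RefSeq window of Psmd9 given above (chr5:123228133-123228189) lies past the end of Hpd, so from that start Psmd9 does not overlap Hpd. Which start the deposited values used is not given. Hpd fell from 840.5 to 1447 FPKM in saline livers to 94.7 to 477 FPKM in WT and Het livers given APAP, with 1290 and 745 FPKM in OE livers (averaged difference -1.50 ± 0.31 SE, limma adjusted p = 0.00502), and it had its highest value in OE saline 2, where Psmd9 had its second highest. Whether reads were counted by strand is not given in the sources used here, so the Psmd9 value is uncertain, and the part of Hpd in it was not tested. By the GENCODE spans, 7 of the 46 genes overlap a protein-coding gene of the other strand that is expressed. Psmb7 (Nek6), Psmd13 (Sirt3) and Psmb9 (Tap1) are among them, and the same limit holds for these.

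**Figure D3:**
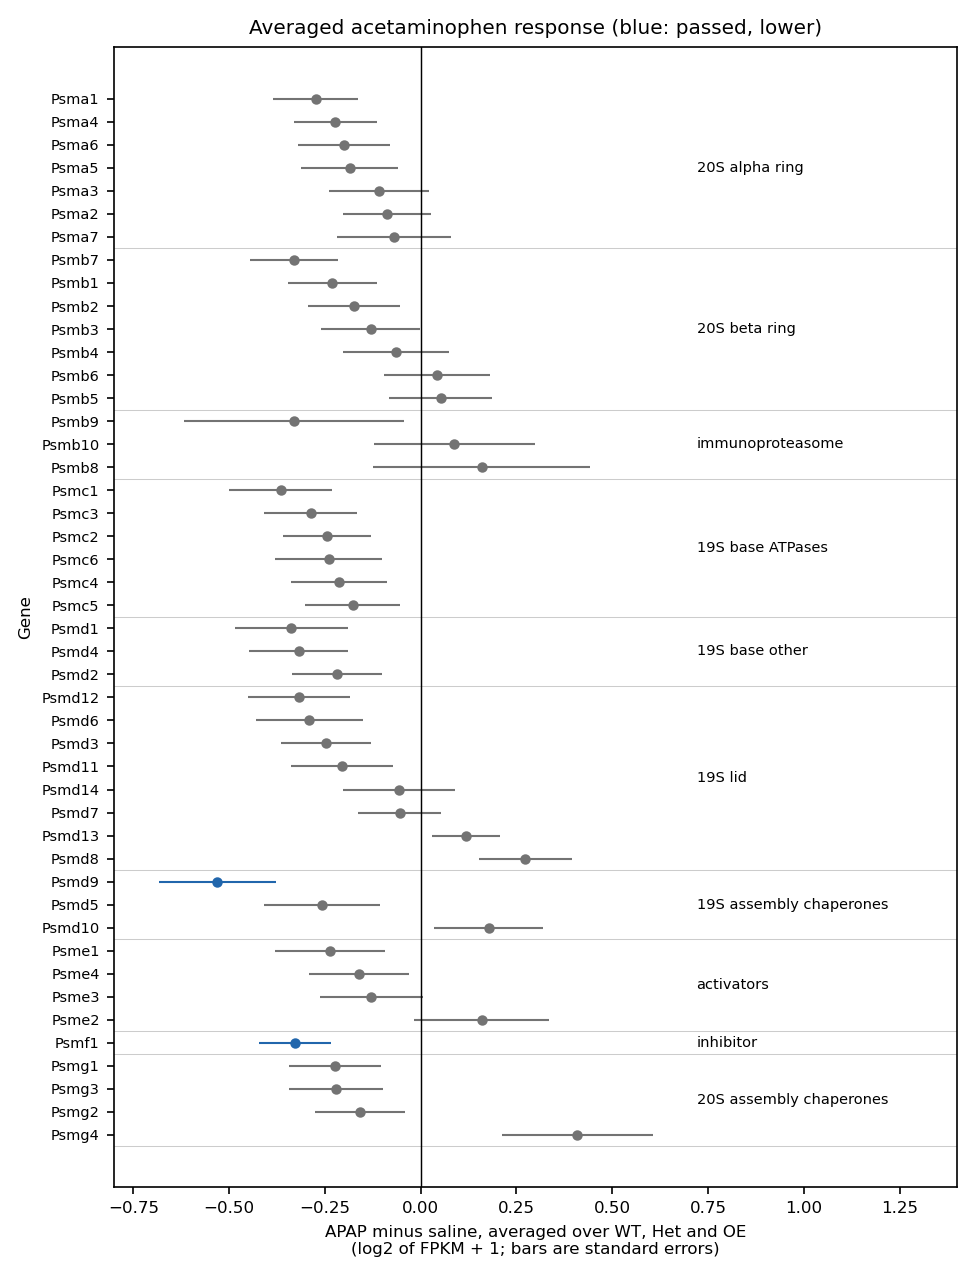
Averaged APAP minus saline difference of each of the 46 genes (x axis, log2 of FPKM + 1) with its standard error, grouped by role; blue marks the 2 genes that passed, Psmf1 and Psmd9. All 7 alpha ring genes and all 6 base ATPases lie below 0 as deposited (0 of 7 and 3 of 6 after quantile normalisation), while Psmd8 and Psmg4 lie highest.

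In the 20S core, all 7 alpha ring genes and 5 of 7 beta ring genes were below 0, with medians of -0.19 and -0.13, and none passed; after quantile normalisation 0 of 7 alpha and 1 of 7 beta ring genes were below 0, with medians of 0.09 and 0.18. Psmb7 (chr2:38588036-38644087, minus strand), which carries the trypsin-like site, came closest. It had 114, 113 and 104 FPKM in WT saline against 92.1, 88.9 and 74.0 FPKM in WT APAP, and 120 and 115 FPKM in Het saline against 90.9, 90.2 and 69.4 FPKM in Het APAP. OE livers overlapped, with 99.7 and 117 FPKM after saline and 103 and 93.6 FPKM after APAP. Its averaged difference was -0.33 ± 0.12 (SE, limma adjusted p = 0.0571), which shrank to -0.02 after quantile normalisation. Psma1, an alpha subunit, differed by -0.27 ± 0.11 (SE, limma adjusted p = 0.0958) and by 0.02 after quantile normalisation. Psmb5 and Psmb6 had their highest levels, 113 and 196 FPKM, in the same library, Het APAP 2.

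In the 19S particle, all 6 base ATPases and the other 3 base subunits were below 0, with medians of -0.24 and -0.32, and none passed; after quantile normalisation 3 of 6 and 2 of 3 were below 0, with medians of -0.01 and -0.06. The ATPase Psmc1 differed by -0.37 ± 0.14 (SE, limma adjusted p = 0.0716), the scaffold Psmd1 by -0.34 ± 0.15 and the ubiquitin receptor Psmd4 by -0.32 ± 0.13, and over all genotypes the saline and APAP libraries of each overlapped. Of 8 lid genes, 6 were below 0, and 4 after quantile normalisation. Psmd8 (chr7:29174188-29180701, minus strand), a lid subunit, went the other way. It had 87.9, 84.1 and 76.3 FPKM in WT saline and 74.1, 104 and 97.9 FPKM in WT APAP. Het saline livers had 87.9 and 84.8 FPKM and Het APAP livers 119, 145 and 120 FPKM, the 3 highest values of the study. OE livers had 90.5 and 83.1 FPKM after saline and 73.4 and 97.4 FPKM after APAP. Its averaged difference did not pass as deposited (0.27 ± 0.12 SE, limma adjusted p = 0.131) and passed after quantile normalisation (0.57, limma adjusted p = 0.00941), where the lid subunit Psmd13 passed as well (0.27).

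Among the smaller groups, 3 of 4 core chaperones were below 0. Psmg4, a partner of Psmg3 in alpha ring assembly, was above it: 7.16 to 12.9 FPKM in the 7 saline livers and 8.17 to 19.9 FPKM in the 8 livers given 200.0 mg/kg, with the highest value in Het APAP 2 (0.41 ± 0.20 SE, limma adjusted p = 0.160). Of the 4 activators, which open the core in place of the 19S cap, none passed. Psme1, the alpha chain of PA28, differed by -0.24 ± 0.14 (SE, limma adjusted p = 0.261) and its partner Psme2 by 0.16 ± 0.18. The lowest Psme1 levels were 30.3 FPKM in OE APAP 1, 36.6 FPKM in Het APAP 2, 41.1 FPKM in Het APAP 3 and 46.3 FPKM in OE saline 2, and all other libraries lay at 54.8 FPKM or above.

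**Figure D4:**
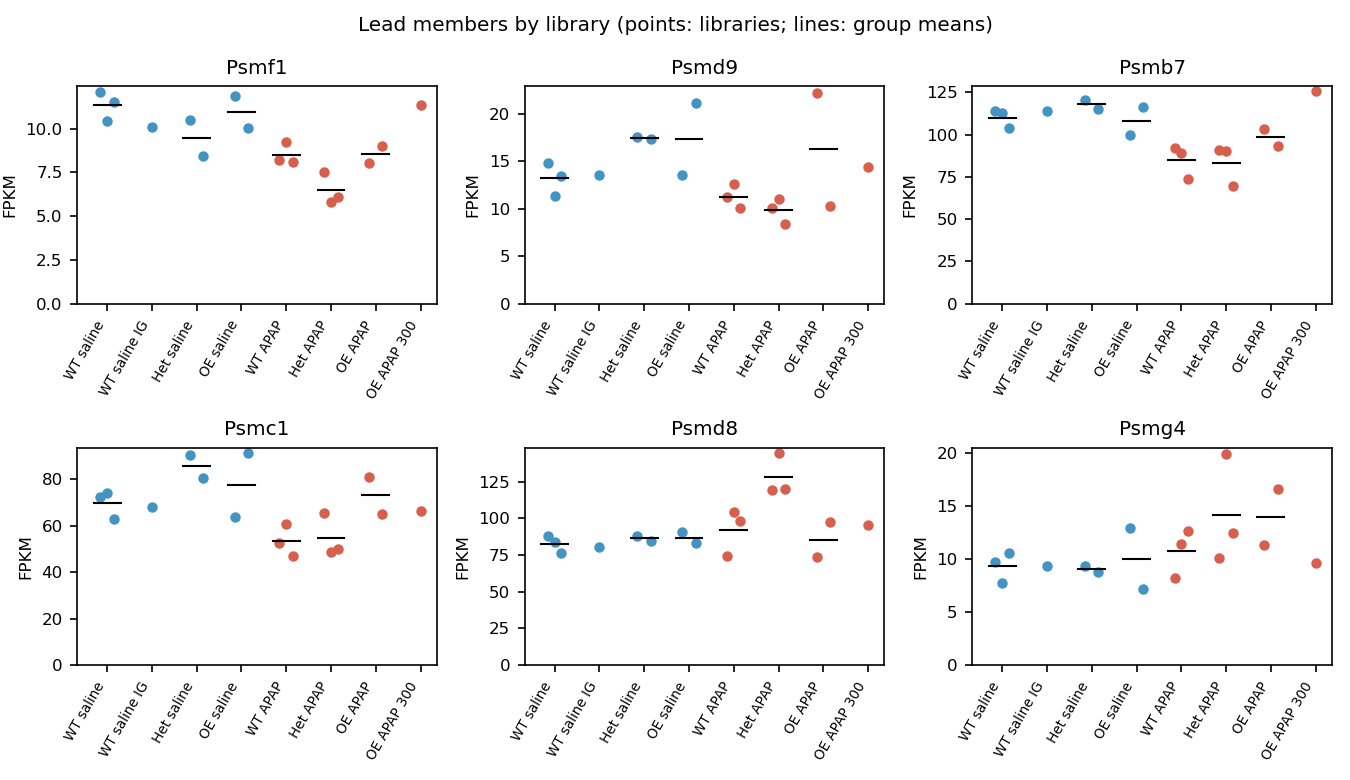
FPKM of Psmf1, Psmd9, Psmb7, Psmc1, Psmd8 and Psmg4 in each library (points; blue saline, red APAP) by label group, with lines at group means. Psmf1 is lower after 200.0 mg/kg APAP in all 3 genotypes, and Psmd8 is highest in the 3 Het APAP livers.

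By genotype, 0 of 43 genes passed in WT (limma; 0 also at an unadjusted p under 0.05), beside 5.5% of all genes (1.95% higher, 3.55% lower). The median was -0.16, and 0.10 after quantile normalisation. Libraries did not overlap for 15 of 43 lower and 1 higher, beside 21.7% and 16.4% of all genes, and 6 of the 15 were alpha ring genes. After quantile normalisation 1 of 7 alpha ring genes was below 0 in WT, with a median of 0.10. Every WT APAP liver was in lane 5 and every WT saline liver in lane 6 or 7, so drug and lane cannot be told apart in WT. In OE, 0 of 43 passed (limma; 0 at an unadjusted p under 0.05), as for all genes (0%). The OE median was -0.06, or 0.10 without OE saline 2 and OE APAP 1 (the remaining livers are from lane 8) and -0.18 within lane 4. In lane 8 the OE liver given APAP was aged 12 weeks and the OE saline liver 11 weeks.

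In livers labelled Het, 3 of 43 fell and 1 rose, beside 22.1% of all genes (13.1% lower, 9.04% higher). Psmd9 fell by 1.01 (limma adjusted p = 0.0161), Psmd12, a scaffold subunit of the lid, fell by 0.67 (0.0472) and Psma1 fell by 0.56 (0.0478), while Psmd8 rose by 0.64 (0.0441). After quantile normalisation the calls of Psmd12 (-0.42, limma adjusted p = 0.176) and Psma1 (-0.11, 0.686) were lost, Psmd9 (-0.88) and Psmd8 (1.09) still passed, and Psmb5 passed as higher (0.67, 0.0306), giving 2 higher and 1 lower. The Het libraries did not overlap for 25 of 43 lower and 4 higher, beside 33.2% and 25.4% of all genes, and these included all 6 ATPases and the other 3 base subunits on the lower side. The 4 higher were Psmd8, Psmd10, Psmg4 and Psme2. The median was -0.33, or -0.01 after quantile normalisation. With lane in place of perfusion, which leaves the lane 8 livers to carry the contrast, it was -0.19 and 0 of 43 passed in either direction. The calls were lost without Het saline 1 or Het saline 2 (0 of 43), 0 rose without Het APAP 2, 0 rose and 1 fell without Het APAP 3, and 9 fell and 1 rose without Het APAP 1.

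Psmd12 (chr11:107479484-107504362, plus strand) had 45.8 and 47.3 FPKM in Het saline and 35.4, 31.6 and 24.9 FPKM in Het APAP. WT saline livers had 31.1, 34.9 and 33.8 FPKM, so 2 Het APAP livers were near WT saline, Het APAP 3 was the lowest of all 17 libraries, and both Het saline livers were above WT saline. Psma1 (chr7:114264606-114276118, minus strand) had 103 and 105 FPKM in Het saline, 74.6, 72.8 and 63.9 FPKM in Het APAP, and 90.3, 96.8 and 82.9 FPKM in WT saline.

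No test showed that the response differed between genotypes: 0 of 43 passed for Het minus WT (limma; 1 at an unadjusted p under 0.05), beside 0% of all genes, 0 for OE minus WT (0 unadjusted), beside 0%, and 0 for OE minus Het (3 unadjusted), beside 0.018%. The lowest p of the last belonged to Psmd9 (0.86, limma adjusted p = 0.236), Psmd8 (-0.67, 0.249) and Psma1 (0.60, 0.253). In the first, Psme3, the nuclear activator PA28 gamma, differed by -0.65 (limma adjusted p = 0.603). The median was 0.12 for OE minus WT and 0.24 for OE minus Het, and 0.18 and 0.28 without OE saline 2 and OE APAP 1, where limma passed 0 of 43 as well.

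Under saline, 37 of 43 genes were higher in the livers labelled Het than in WT, with a median of 0.17 (all genes 0.01), or 0.19 after quantile normalisation. None passed (limma; 3 at an unadjusted p under 0.05), beside 0.036% of all genes. Libraries did not overlap for 21 of 43 higher and 1 lower, beside 20.3% and 19.1% of all genes. All 17 base and lid genes were above 0, with a median of 0.29, against 0.09 for the 14 ring genes. Psme3 had 24.6 and 23.6 FPKM in Het saline against 14.2, 13.7 and 15.02 FPKM in WT saline (0.76 ± 0.21 SE, limma adjusted p = 0.229), and passed when these groups were fitted alone. Psmd12 differed by 0.51 and Psmd7, a lid subunit, by 0.40, and neither passed. The Het livers were in lane 8 and aged 11 weeks, and the perfused WT livers were in lane 7 and aged 12 weeks. Genotype, lane and age therefore cannot be told apart here. The OE saline livers had a median of 0.13 against WT, with 0 of 43 passing (limma; 0 unadjusted) beside 0.036% (0.027% lower), and a median of -0.02 without OE saline 2 and OE APAP 1.

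After APAP, Het and WT livers differed little, with a median of 0.06 (0.19 after quantile normalisation), 0 of 43 passing (limma; 4 at an unadjusted p under 0.05) and 0.054% of all genes called (0.045% lower, 0.00901% higher). Libraries did not overlap for 4 of 43 higher and 2 lower, beside 8.96% and 11.4% of all genes. The 4 with an unadjusted p under 0.05 were Psmf1, Psme1 (-0.53, limma adjusted p = 0.180), Psmd8 (0.44, 0.192) and the chaperone Psmd10. OE livers were above WT with a median of 0.24, and 0 of 43 passed (limma; 7 unadjusted) beside 0.00901% of all genes. Libraries did not overlap for 16 of 43 higher and 1 lower, beside 16.1% and 11.1% of all genes. The median was -0.03 with lane in the model and 0.12 without OE saline 2 and OE APAP 1. Psmg3 (0.55), Psme1 (-0.61) and Psma6 (0.49) had the smallest p. OE livers were above Het with a median of 0.20, 0 of 43 passing (limma; 6 unadjusted) beside 13.6% of all genes (8.72% higher, 4.9% lower). That share rested on few libraries: it was 0.00901% without OE saline 2 and OE APAP 1, 0.045% without OE APAP 1 alone and 0.027% with lane in the model. Libraries did not overlap for 8 higher and 1 lower, beside 23.3% and 17%. The median was -0.09 after quantile normalisation, 0.02 with lane in the model and 0.09 without OE saline 2 and OE APAP 1. Psmd8 was lower in OE by 0.61 on the log2 scale (limma adjusted p = 0.0504), just outside the threshold.

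The immunoproteasome genes did not pass in any of the 12 comparisons. Psmb8 had 19.8, 13.4 and 22.1 FPKM in WT saline and 12.1, 12.9 and 29.4 FPKM in WT APAP. Psmb9 had 12.4, 9.77 and 12.1 FPKM in WT saline and 4.30, 5.16 and 16.3 FPKM in WT APAP, and Psmb10 20.5, 14.5 and 23.8 against 15.1, 14.5 and 23.3 FPKM. WT APAP 3 was above every WT saline liver in Psmb8 and Psmb9, and WT APAP 1 and 2 were below them, while Psmb10 overlapped. The averaged differences were 0.16 ± 0.28 for Psmb8, -0.33 ± 0.29 for Psmb9 and 0.09 ± 0.21 for Psmb10 (SE), and those of Psmb8 and Psmb10 turned negative without the perfusion term (-0.07 and -0.09). The summed level of 14 leukocyte and macrophage markers was 521 FPKM in WT APAP 3, 192 and 162 FPKM in the other WT APAP livers, and 121 to 263 FPKM in saline livers. OE saline 2 and OE APAP 1 had the lowest summed immunoproteasome level, 26.4 and 25.8 FPKM, and leukocyte marker sums of 121 and 139 FPKM. Het APAP livers had marker sums of 362 to 474 FPKM and immunoproteasome sums of 31.2 to 45.3 FPKM, within the range of the saline livers. The part of leukocytes in these values was not tested.

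Each immunoproteasome subunit was also set against the standard subunit it replaces. In saline livers Psmb8 stood at 9.65% to 32.1% of Psmb5, and after 200.0 mg/kg APAP at 10.3% to 35.4%. Psmb9 stood at 4.18% to 7.84% of Psmb6 after saline and 3.07% to 11.0% after APAP, and Psmb10 at 10.2% to 24.8% and 12.8% to 31.5% of Psmb7. The log2 ratio differed by -0.26 for Psmb8 to Psmb5 (exact two-sided permutation test, p = 0.374, adjusted p = 0.374), by -0.43 for Psmb9 to Psmb6 (exact permutation p = 0.113, adjusted p = 0.339) and by 0.23 for Psmb10 to Psmb7 (exact permutation p = 0.335, adjusted p = 0.374), over 8 APAP and 7 saline libraries and adjusted over the 3 ratios. The permutation did not hold perfusion apart, and 5 of the 7 saline but 2 of the 8 APAP livers were perfused. The Psmb8 to Psmb5 difference was -0.05 in perfused livers, 0.11 in non-perfused livers and 0.06 in OE livers, so its direction turned. Psmb9 to Psmb6 gave -0.58 and -0.18 in perfused and non-perfused livers, and Psmb10 to Psmb7 gave 0.48 and 0.21. The WT APAP livers did not point one way: for Psmb8 and Psmb9, replicates 1 and 2 lay below every WT saline liver and replicate 3 above.

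**Figure D5:**
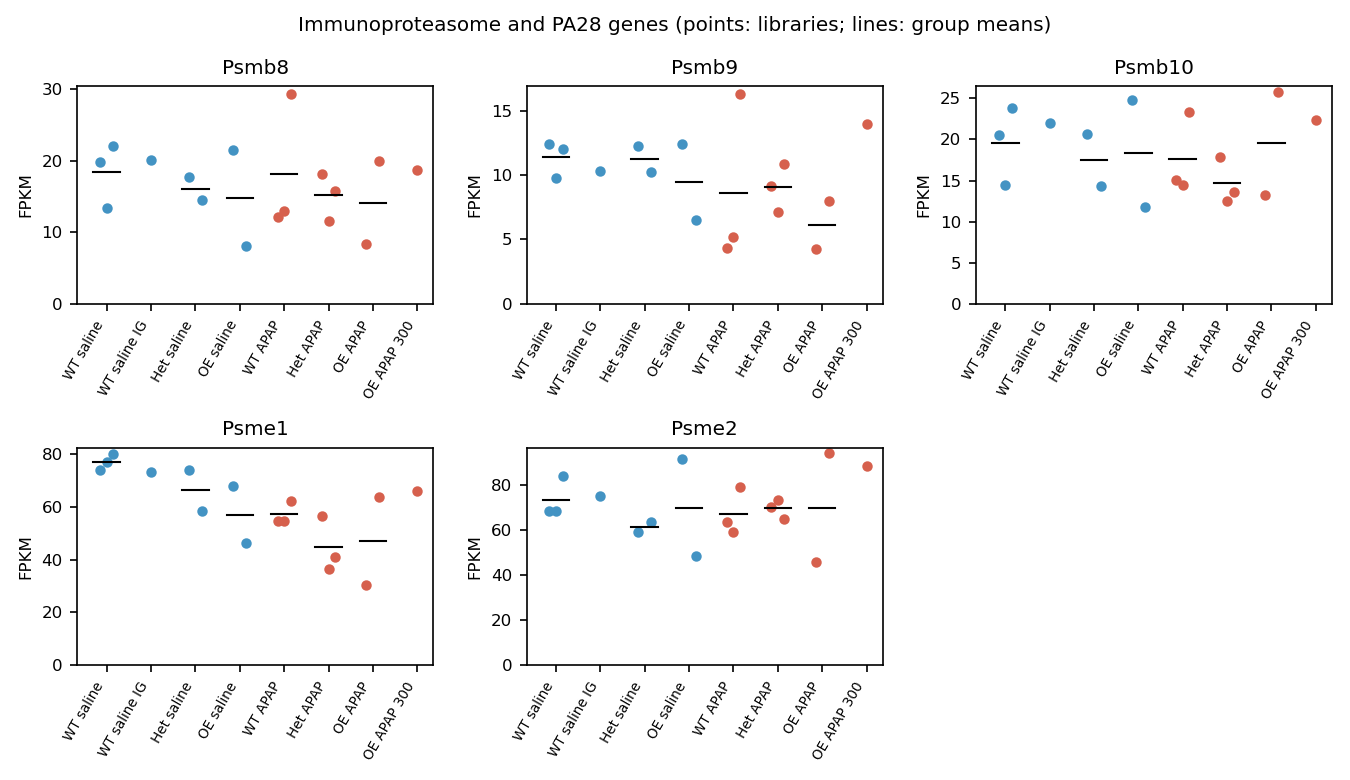
FPKM of Psmb8, Psmb9, Psmb10, Psme1 and Psme2 in each library (points; blue saline, red APAP) by label group, with lines at group means. In WT APAP a single library is high in Psmb8 and Psmb9 (29.4 and 16.3 FPKM), and the OE pairs are split between a low lane 4 library and a higher lane 8 library.

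Genes that work around the proteasome gave a mixed picture in the averaged response. All values here are as deposited, and counts stand beside the 9.79% of all genes that were higher and the 13.3% that were lower. The share called differed with level: 18.7% of all genes of 3 to 10 FPKM and 37.5% of those of 30 to 100 FPKM. Of 7 transcriptional regulators, the small Maf genes Maff (0.88) and Mafk (0.63) rose and Mafg fell by 0.48, while Nfe2l1 (0.02) and Nfe2l2 (-0.32) did not pass. Of 13 Nrf2 targets, 7 rose and none fell (53.8% called), Gsta1 (3.55) and Srxn1 (0.98) among them. Of 12 antigen-processing genes, B2m fell by 0.50 and Erap1 by 0.46 and 10 did not pass, while 9 of the 12 were above 0. Of 17 autophagy genes, 5 fell and none rose, that is 29.4% called, beside 23.1% of all genes. None of 12 interferon-response genes passed.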

How the data were processed

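RNA of 17 mouse livers was sequenced from both ends after a stranded total RNA kit, per the labels' protocols. The submitters' processing notes name TopHat2 2.0.9, bcl2fastq 2.17.1.14, Cuffdiff, Cufflinks 2.2.1 and the build GRCm38.p5. The annotation is not given in the sources used here. All deposited values are read as FPKM that the authors made with these tools, a unit inferred from the tools and the values, since no header names it. Depth is unknown, so no counting interval is given. Summed FPKM ran from 466883 to 916006 per library, and the closest pair of libraries differed by a median of 0.135 (log2), so none was a duplicate. The labels do not state that each library is a different mouse, so the p-values cover the spread among these libraries alone, and it may be technical.

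Symbols came from a table of gene IDs and positions from GENCODE vM21 (GRCm38). Of 11192 genes whose mean reached 1 FPKM, 89 were listed at 0 throughout a genotype and drug block with at least 10 FPKM elsewhere, and these, with 2 neighbours within 100 kb at 0 in the same blocks, were left out. limma 3.58.1 (R 4.3.3, trended and robust prior, 8 residual degrees of freedom) fitted log2(FPKM + 1) for 8 label groups and perfusion to the other 11101 genes, with Benjamini-Hochberg adjustment at 0.05. Fold changes on this scale understate those of low genes. The script was tested on simulated data. Ratios of subunits were compared by exact permutation of 8 against 7 libraries. Alternatives were another pseudocount, filter, scaling, batch term, grouping and set of libraries.

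The members, the lists and the rules were chosen with earlier results of these data known. Genes are named where they passed, or, where none did, as the 3 with the smallest p, together with the leader of each role, Psmb8 to Psmb10, Psme1, Psme2 and those with an unadjusted p under 0.05 in the averaged response. Near-identical copies (Psme2b and 4 pseudogenes with such symbols) had at most 1.10 FPKM. Some results on genes that work around the proteasome are not reported here.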

Additional observations from a re-analysis of the deposited data

Results flagged for a closer look

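The OE liver given APAP at 300.0 mg/kg is a single library that entered no main comparison. It was counted with the other OE livers given APAP only where rare labels were pooled. In this library, 12 of the 46 genes lay above all 8 saline libraries, IG included, and 7 lay below them, while of all genes tested 20% lay above and 20.3% below. The 7 below were Psma5 (44.7 FPKM), Psmc4 (60.6), Psmc5 (35.6), Psmd1 (29.0), Psmd3 (16.9), Psmd4 (52.7) and Psme3 (13.3). Its summed FPKM, 916006, was the highest of the 17. Of the 12 above, the alpha subunits Psma2, Psma3 and Psma7 had 122, 199 and 133 FPKM. The beta subunits Psmb1, Psmb3 and Psmb4 had 143, 133 and 171 FPKM, and Psmb6 and Psmb7 had 179 and 126 FPKM. The immunoproteasome subunit Psmb9 had 14.0 FPKM. The lid subunits Psmd8 and Psmd13 had 95.4 and 47.7 FPKM, and the chaperone Psmd10 had 7.40 FPKM. Whether the dose or the library moves these values was not tested.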

How the results depend on the processing

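No paired analysis was possible because the labels carry no replicate numbers that pair libraries. The cause of the changes below was not tested. In the averaged response the count of lower genes was 1 with no filter, 6 without the perfusion term, 4 with the rare labels pooled, 1 without OE saline 2 and OE APAP 1, and 0 to 8 leaving out 1 library; the higher count was 2 after quantile normalisation and 0 to 1 leaving out 1 library. Its median was 0.019 after quantile normalisation and -0.26 to -0.10 leaving out 1 library. After quantile normalisation 18 of 43 genes turned positive, among the named ones Psmc3 (0.011), Psme1 (0.014) and Psma1 (0.024). Others turned negative: Psmb8 (-0.074) and Psmb10 (-0.094) without perfusion, and Psmb8 (-0.10), Psmb10 (-0.11) and Psme2 (-0.029) without OE saline 2 and OE APAP 1; leaving out 1 library, they ran from -0.10 to 0.47, -0.11 to 0.37 and -0.071 to 0.37. In WT, quantile normalisation gave a median of 0.10 and Psmb7 0.0032, and leaving out 1 library -0.23 to -0.11. In Het, the calls were 0 and 0 with no filter, with lane (median -0.19) and with only the groups compared (median -0.19); quantile normalisation gave 2 higher, 1 lower and a median of -0.0098, median-ratio scaling 1 lower, and no perfusion term 6 lower; leaving out 1 library gave 0 to 1 higher, 0 to 9 lower and -0.47 to -0.26. The OE median ran from -0.23 to 0.11, and was 0.10 without OE saline 2 and OE APAP 1. For Het minus WT after APAP the median was 0.19 after quantile normalisation and -0.023 to 0.18 leaving out 1 library; for OE minus WT 0.12, -0.033 with lane, 0.12 without OE saline 2 and OE APAP 1, and 0.20 to 0.29. For OE minus Het it was -0.091 (2 lower), 0.016 with lane and 0.11 to 0.27, with 1 lower after median-ratio scaling, 3 higher and 1 lower with rare labels pooled, and 0 to 2 higher and 0 to 1 lower leaving out 1 library. Under saline, Het minus WT gave 1 higher with only the groups compared and medians of 0.12 to 0.20, and OE minus WT -0.018 without OE saline 2 and OE APAP 1 and 0.00066 to 0.31. Medians of response differences were -0.078 and -0.029 after quantile normalisation for OE minus WT and OE minus Het, and ran from -0.10 to 0.25 and 0.038 to 0.40, and for Het minus WT from -0.21 to 0.00. The Psmb8 to Psmb5 ratio difference was 0.11 in non-perfused livers and 0.059 in OE livers; leaving out 1 library gave -0.46 to -0.14, and -0.59 to -0.36 and 0.12 to 0.33 for the other 2 ratios. No depth is known, so no limit from counting can be set.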
